A study of Mus musculus with 2 samples.

Results

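The genes described here are 10 genes that mark T cells and intraepithelial lymphocytes, Cd3d, Cd3e, Cd3g, Cd8a, Cd4, Itgae, Gzma, Gzmb, Cd7 and Cd160. They were chosen by name, and every probeset (a set of short probes on the array that reads the same transcript) annotated to one of them was taken. This gave 19 probesets of 45037, and 10 of the 18201 genes that have a probeset of their own. The animals were male mice of the inbred strain C57BL/6J, aged 4 months, that ate a semisynthetic diet with 20% fat by weight for 4 weeks, 12 mice per diet. The control diet had flaxseed oil, rich in the plant n-3 fatty acid ALA, as its fat, and the EPA&DHA diet had 44% of that fat replaced by a marine n-3 concentrate of 6% EPA and 51% DHA. RNA of 10 control mice and 11 EPA&DHA mice was pooled, and each pool went onto 1 Affymetrix mouse array. The labels describe homogenized small intestine, whereas the methods describe scrapings of it. With 1 array per diet the spread between mice was not measured, so no test, standard error or p-value is given.

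T cells recognise antigen through the T cell receptor, whose chains are held at the cell surface and coupled to signalling enzymes by the CD3 proteins. Intraepithelial lymphocytes are T cells that sit between the absorptive cells of the gut lining, where many carry CD8 alpha and the integrin CD103, which binds E-cadherin on the epithelium. Those of the small intestine are known for stored granzymes, proteases that enter target cells and start their death, and many use a receptor of gamma and delta chains.

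Of the 10 genes, 9 could be measured, and neither the whole group nor the genes of a single role stood apart in 1 direction between the diets. A gene counts as measured when a probeset that names it alone has a geometric mean signal over both arrays of at least 50, and its value is that of its brightest such probeset. Cd8a was 1.76-fold lower on EPA&DHA and Cd3e was 1.53-fold higher, and the other 7 genes differed by less than 1.5-fold. At 2-fold 0 of the 9 were apart. Among all 11757 genes measured the same way, 8.02% were lower on EPA&DHA by 1.5-fold or more, 6.25% were higher by 1.5-fold or more, and 3.87% differed by 2-fold or more in either direction. The median log2 ratio of EPA&DHA over control was -0.04 over the 9 genes and -0.05 over all genes, with 5 of the 9 below 0 and 4 above. Since the tissue is a mixture, fewer cells of a type and less RNA per cell cannot be told apart in any of these values.

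To show how a difference compares with others at the same brightness, each probeset has a local SD, the robust SD of the log2 ratios of the 500 probesets nearest to it in mean signal. It contains real differences between the pools and is not a replicate error. Of the 14 probesets of these genes above the filter, 1 lay beyond 2 local SDs of 0, the brightest of Cd8a. Of all 24461 probesets above the filter, 7.65% lay beyond 2 local SDs.

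**Figure D1:**
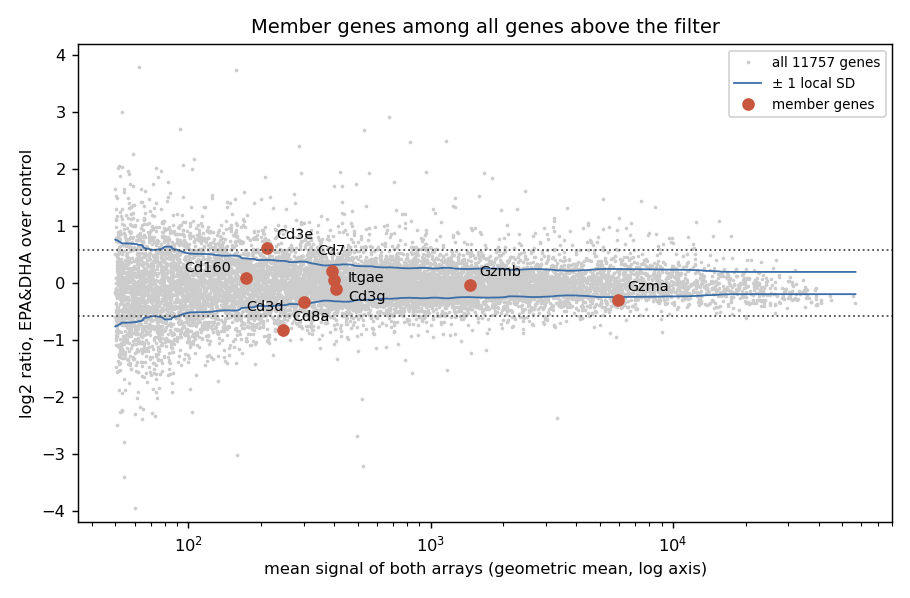
Log2 ratio of EPA&DHA over control (y axis) against the geometric mean signal of both arrays (x axis, log scale) for all 11757 genes measured (grey) and the 9 named ones (red). Blue lines mark 1 local SD either side of 0 and dotted lines mark 1.5-fold. Cd8a lies below the lower dotted line and Cd3e just above the upper one, while the other 7 lie between them.

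The CD3 proteins come first, since every T cell carries them. Cd3g, Cd3d and Cd3e, which encode the gamma, delta and epsilon chains, are neighbours on mouse chromosome 9. In the gene table (build GRCm38.p6) Cd3g lies at chr9:44969572-44980431, Cd3d at chr9:44981769-44987052 and Cd3e at chr9:44998735-45009663. Cd3d is read in the opposite direction to the other two. The promoters of these neighbouring genes of a protein complex, from 250 bases before to 50 after the transcript start, are printed here from RefSeq. All are given 5′ to 3′ on the gene's own strand. They are at chr9:44980382-44980681 (minus strand) for Cd3g, chr9:44981536-44981835 (plus strand) for Cd3d and chr9:45009562-45009861 (minus strand) for Cd3e. Capitals would mark TGTGGT or its complement ACCACA, the core that RUNX factors, regulators of CD8 T cells, bind. These windows hold neither.
Cd3g: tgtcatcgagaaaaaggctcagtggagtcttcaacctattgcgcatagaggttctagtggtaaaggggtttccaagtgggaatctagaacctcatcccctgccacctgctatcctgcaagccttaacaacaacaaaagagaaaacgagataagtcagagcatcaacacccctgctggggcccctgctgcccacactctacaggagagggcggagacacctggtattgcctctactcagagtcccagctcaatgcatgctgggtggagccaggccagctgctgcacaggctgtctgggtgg
Cd3d: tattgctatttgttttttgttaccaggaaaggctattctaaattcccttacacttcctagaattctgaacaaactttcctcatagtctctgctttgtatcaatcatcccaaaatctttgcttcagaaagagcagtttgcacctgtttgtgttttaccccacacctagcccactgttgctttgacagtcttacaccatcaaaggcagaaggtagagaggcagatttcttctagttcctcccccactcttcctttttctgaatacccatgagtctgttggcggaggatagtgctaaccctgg
Cd3e: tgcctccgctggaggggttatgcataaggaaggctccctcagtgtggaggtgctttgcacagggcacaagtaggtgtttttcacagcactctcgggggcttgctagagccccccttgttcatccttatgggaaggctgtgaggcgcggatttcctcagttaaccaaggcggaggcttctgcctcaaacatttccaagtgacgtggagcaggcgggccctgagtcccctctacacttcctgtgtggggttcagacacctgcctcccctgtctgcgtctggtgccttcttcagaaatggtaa

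Cd3e, the epsilon chain that pairs with both other chains, had a signal of 171 on the control array and 261 on EPA&DHA, for a log2 ratio of 0.61 with a local SD of 0.41. Cd3d had 338 on control and 268 on EPA&DHA, for a log2 ratio of -0.33 (local SD 0.39). For Cd3g the signals were 420 and 393, a log2 ratio of -0.10 (local SD 0.32). The RNA signal of Cd3e was thus higher on EPA&DHA by more than 1 local SD, while the ratios of Cd3d and Cd3g lay within 1 local SD of 0. Each of the 3 genes has 1 probeset here, so a gene cannot be checked against a second one of its own. Cd247, the zeta chain that carries the signal inward, was dim and showed 44.2 on control and 68.9 on EPA&DHA, with the control value under 50. Fcer1g, an adaptor that can stand in for the zeta chain, had 236 and 225, a log2 ratio of -0.07. Lck and Trac had no probeset that names them alone, so they were not measured.

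**Figure D2:**
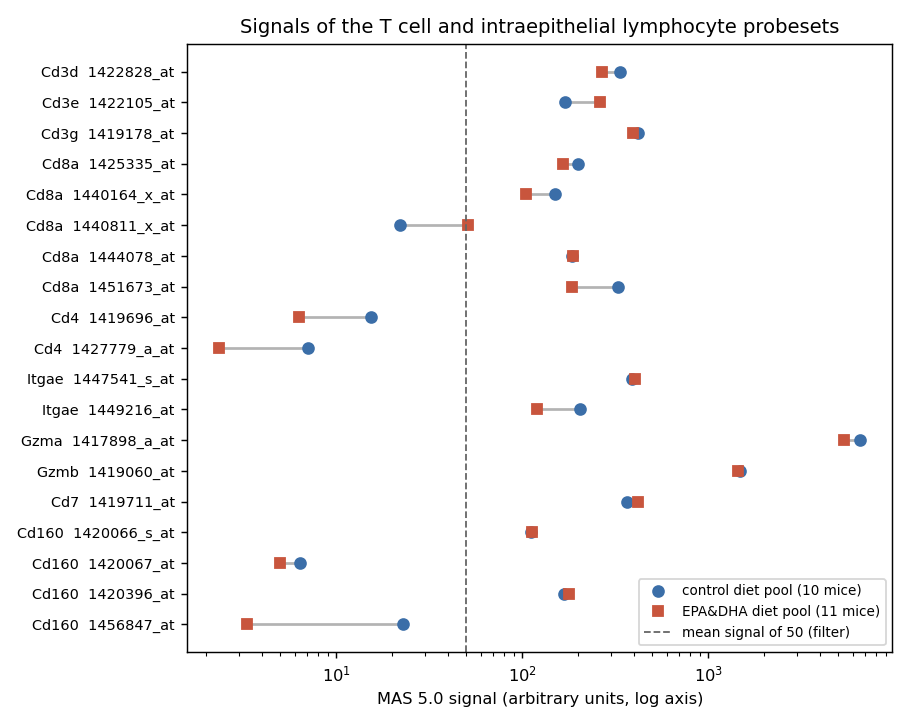
MAS 5.0 signal (x axis, arbitrary units, log scale) on the control array (blue circles) and the EPA&DHA array (red squares) for each of the 19 probesets of the 10 genes. A grey line joins the points of a probeset, and the dashed line marks a signal of 50, the value the mean of both arrays had to reach. Both probesets of Cd4, 1 of Cd8a and 2 of Cd160 have means to its left, and the points of Gzmb and Cd3g nearly coincide.

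The co-receptors CD8 and CD4 bind the molecules that present antigen and divide T cells into their main lineages. Cd8a, at chr6:71373427-71379171, has 5 probesets, and they did not give 1 answer. Its brightest, 1451673_at, had 328 on control and 186 on EPA&DHA, for a log2 ratio of -0.82 (local SD 0.39). The next, 1425335_at, had 199 and 167, a log2 ratio of -0.26. For 1444078_at the signals were 186 and 188, a log2 ratio of 0.02. The probeset 1440164_x_at, whose suffix marks probes that can also bind other transcripts, had 151 and 105, a log2 ratio of -0.52. Within this gene the readings thus ran from lower on EPA&DHA to level. The mean log2 ratio of the 4 probesets above the filter was -0.39, which is less than 1.5-fold. The fifth, 1440811_x_at, was below the filter with 22.0 and 51.2.

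Cd4, the co-receptor of helper T cells at chr6:124864693-124888247, was not measurable on either array. Its probesets had 15.4 and 7.03 on control and 6.30 and 2.35 on EPA&DHA, all far under the filter, so no ratio between the diets is read from them.

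**Figure D3:**
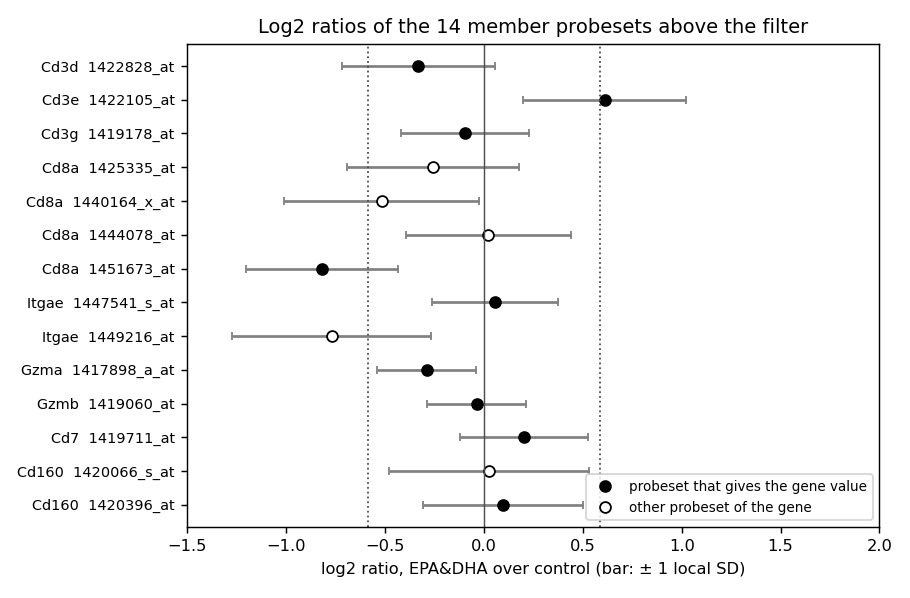
Log2 ratio of EPA&DHA over control (x axis) for the 14 probesets above the filter, with bars of 1 local SD either side. Filled points are the probesets that give the value of their gene and open points are its other probesets, and dotted lines mark 1.5-fold. The probesets of Cd8a run from -0.82 to 0.02 and those of Itgae from -0.77 to 0.06, while both of Cd160 lie near 0.

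Itgae encodes CD103, the alpha E chain of the integrin that holds intraepithelial lymphocytes to E-cadherin, and lies at chr11:73090505-73147449. Its 2 probesets differed. On 1447541_s_at, the brighter, the signal was 391 on control and 406 on EPA&DHA, for a log2 ratio of 0.06 (local SD 0.32). On 1449216_at it was 204 and 120, 1.70-fold lower on EPA&DHA, for a log2 ratio of -0.77 (local SD 0.50). The mean of both was -0.36, so whether Itgae is read as level or as lower depends on the probeset. Counted over probesets rather than genes, 2 of the 14 were lower by 1.5-fold or more (1 of Cd8a, 1 of Itgae) and 1 was higher by that much (Cd3e). The shares over all probesets above the filter were 9.01% and 8.11%.

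The granzymes were read far above the filter. Gzma, which encodes granzyme A, a protease that cuts after basic residues, lies at chr13:113093824-113100981. Its signal was 6590 on control and 5391 on EPA&DHA, 1.22-fold lower, a log2 ratio of -0.29 with a local SD of 0.25. Gzmb, encoding granzyme B, which cuts and activates caspases, lies at chr14:56258836-56262334. It had 1476 on control and 1439 on EPA&DHA, for a log2 ratio of -0.04 (local SD 0.25). One granzyme was level and the other somewhat lower, and both stayed under 1.5-fold. Their promoters are shown because they hold the RUNX core, in capitals, at chr13:113100932-113101231 (minus strand) for Gzma and at chr14:56262285-56262584 (minus strand) for Gzmb.
Gzma: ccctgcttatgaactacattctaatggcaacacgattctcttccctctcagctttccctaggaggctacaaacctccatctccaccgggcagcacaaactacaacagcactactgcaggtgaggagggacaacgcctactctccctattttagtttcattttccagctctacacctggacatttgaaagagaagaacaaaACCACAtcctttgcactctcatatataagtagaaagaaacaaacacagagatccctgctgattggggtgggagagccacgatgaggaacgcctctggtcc
Gzmb: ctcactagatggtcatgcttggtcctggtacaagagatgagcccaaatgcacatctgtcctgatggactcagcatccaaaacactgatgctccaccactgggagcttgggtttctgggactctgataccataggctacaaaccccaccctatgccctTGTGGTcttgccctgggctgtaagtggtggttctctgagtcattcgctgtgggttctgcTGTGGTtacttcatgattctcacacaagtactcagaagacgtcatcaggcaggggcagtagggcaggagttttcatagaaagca
Promoter windows matched 7 of the 10 genes, in 8 windows because Cd160 has 2. TGTGGT was found on either strand in 4 of these 8 windows, those of Gzma, Gzmb and Cd160, and in 16.8% of all 32851 windows of the same length. A match in these letters is a description and not a bound site. The genes with the core, Gzma, Gzmb and Cd160, had log2 ratios of -0.29, -0.04 and 0.10, and those without it, Cd3d, Cd3e, Cd3g and Cd8a, had -0.33, 0.61, -0.10 and -0.82. No window was matched for Cd4, Itgae and Cd7.

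The remaining 2 genes encode surface receptors of intraepithelial lymphocytes. Cd7, a co-stimulatory receptor at chr11:121036747-121039478, had 366 on control and 421 on EPA&DHA, for a log2 ratio of 0.20 (local SD 0.32). Cd160, a lipid-anchored receptor for the epithelial ligand HVEM at chr3:96798763-96829351, had 167 and 179 on its brightest probeset, a log2 ratio of 0.10 (local SD 0.40). Its second, 1420066_s_at, gave 111 and 113. Both readings of Cd160 and that of Cd7 were within 1 local SD of 0. The other probesets of Cd160 were dim, with 6.37 and 22.9 on control and 4.99 and 3.30 on EPA&DHA.

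Brightness bears on how often a ratio passes 1.5-fold. Of the 9 genes, 7 had a mean signal from 100 to 500, with 1 lower and 1 higher at 1.5-fold and a median log2 ratio of 0.06, where 8.8% of 3911 genes were lower and 7.39% higher. Gzma and Gzmb lay above 500, a band in which 124 of 5878 genes were at least 1.5-fold lower and 178 higher. None of the 9 lay from 50 to 100, where ratios are noisiest and 24.1% of 1968 genes were at least 1.5-fold lower and 13.6% higher.

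Other genes used by T cells and intraepithelial lymphocytes were looked at in 7 lists. They cover T cell receptor partners, receptor signalling, surface receptors and cytotoxic granules. The others are of intraepithelial and tissue-resident lymphocytes, helper and regulatory T cells, and T lineage transcription factors. Not every listed gene is particular to T cells (Zbtb7b is also used outside them), so a list value need not come from those cells. The 7 lists hold none of the 10 genes. They were written with earlier results of these data known, so their values are a description and not an independent check. Of their 134 genes 78 were measured, of which 16 (20.5%) were lower on EPA&DHA by 1.5-fold or more and 3 were higher by as much, against 8.02% and 6.25% of all genes. Their median log2 ratio was -0.28, and 69.2% of them were below 0 against 56.5% of all genes. Part of the count comes from dim genes, some of which passed the filter only through the array where they were high. With a signal of at least 50 required on both arrays, 11 genes were lower and 1 higher, with a median of -0.27, where 5.94% of all genes were lower and 5.28% higher. From 50 to 100 of mean signal 8 of 25 were lower and 3 higher (24.1% and 13.6% of all genes there). From 100 to 500 6 of 39 were lower and 0 higher (8.8% and 7.39% of all genes there). Above 500 2 of 14 were lower and 0 higher, where 124 of all 5878 genes were lower and 178 higher. The median was -0.27 in the middle band and -0.29 in the top one, against -0.02 and -0.05 for all genes. The 9 measured genes, with a median of -0.04, did not show this lean.

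In receptor signalling, the enzymes and adaptors that act below CD3, 4 of 16 measured genes (25%) were lower and 1 higher at 1.5-fold. Of all genes 8.02% were lower and 6.25% higher. The median of the list was -0.46 with 12 of 16 below 0. Lat, the membrane scaffold that ZAP-70 phosphorylates, had 242 on control and 108 on EPA&DHA, for a log2 ratio of -1.17 (local SD 0.48). Fyb, an adaptor that links the receptor to integrins, had 380 and 225 (log2 ratio -0.75), but 0.10 on its other probeset. Skap1, its partner, and Ptpn22, a phosphatase that restrains the receptor, had log2 ratios of -0.71 and -0.61. Vav1, an exchange factor that drives the cytoskeleton, went the other way, with 58.8 on control and 137 on EPA&DHA, for a log2 ratio of 1.22 (local SD 0.59).

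Of 12 measured surface receptors 4 were lower (33.3%, against 8.02% of all genes) and 0 higher, with a median of -0.36. With 50 required on both arrays 3 were lower. S1pr1, the receptor by which lymphocytes leave tissues, had 116 on control and 38.9 on EPA&DHA, and was the gene that dropped out, since it passed the filter only through the control array. Cd96, an adhesion receptor of T and NK cells, had a log2 ratio of -0.78, Slamf1 one of -0.71 and Thy1, a T cell surface glycoprotein of the mouse, one of -0.71. The highest was Slamf6 at 0.38. Of these 4 lower genes, 3 were dim, with a mean signal from 50 to 100.

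The list nearest in content to the named genes, that of intraepithelial and tissue-resident lymphocytes, had 2 of 16 genes lower and 0 higher. The lower share was 12.5%, against 8.02% of all genes. The median was -0.24, with 11 of 16 below 0. Ccl5, a chemokine stored by effector T cells, was well above the filter, with 3203 on control and 2012 on EPA&DHA, 1.59-fold lower (log2 ratio -0.67, local SD 0.25). Cxcr6, a chemokine receptor of resident T cells, read -0.76 on its brightest probeset and -0.14 on the other, as log2 ratios. The highest was Rgs2, a brake on G protein signalling, at 0.40, with other probesets from -0.07 to 0.96. Ccr9, the receptor that guides lymphocytes to the small intestine, was named after its values were seen. It had a log2 ratio of 0.30 on an _x_at probeset and -0.29 on its other one above the filter.

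Of the 12 cytotoxic granule and effector genes 1 was lower (8.33%, against 8.02% of all genes) and 0 higher. The median of -0.07 was close to that of all genes, with 6 on either side of 0. Fasl, the death ligand, was dim at 90.0 on control and 49.8 on EPA&DHA, its other probeset read -0.27, and with 50 required on both arrays 0 genes were lower. Prf1, which encodes the pore protein perforin, was the highest at 0.27. Gzma and Gzmb therefore had ratios within the range of their companions in the granule.

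In helper and regulatory T cells 7 of 16 listed genes were measured, with 2 lower (28.6%, against 8.02% of all genes), 1 higher and a median of -0.27. Tnfrsf18, a receptor abundant on regulatory T cells, had 148 on control and 28.1 on EPA&DHA, and passed the filter only through the control array, without which 1 gene of the list was lower. Ccr6 had a log2 ratio of -0.77, and Icos was dim, higher on its brightest probeset (44.4 and 76.9) and at -0.49 on another. Of the 13 T lineage transcription factors 3 were lower (23.1%, against 8.02% of all genes) and 0 higher, with a median of -0.32. With 50 required on both arrays 1 was lower and the median was -0.20, and with a mean signal of at least 100 1 was lower and the median was -0.10. Zbtb7b, which directs the CD4 lineage and is also used outside T cells, had 1534 and 830 (log2 ratio -0.89, local SD 0.27), but -0.26 on its other probeset. Rora had 88.6 on control and 43.6 on EPA&DHA, and its other probesets above the filter read -0.78 and 0.06. Satb1 had 70.1 and 43.0, and the highest ratio was that of Prdm1 at 0.24.

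**Figure D4:**
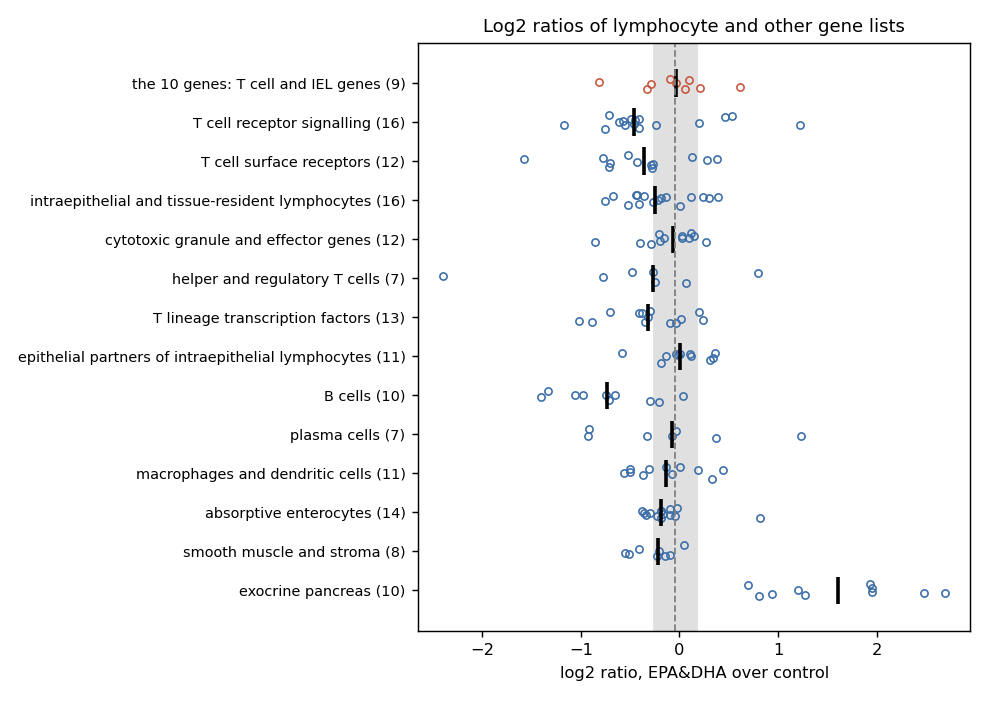
Log2 ratio of EPA&DHA over control (x axis) of single genes (circles), with the 9 named T cell and intraepithelial lymphocyte (IEL) genes in red, 13 other lists in blue and the number of genes in brackets. Black bars are list medians, the dashed line is the median of all genes (-0.05) and the grey band runs from their lower to their upper quartile. The named genes have a median of -0.04, receptor signalling one of -0.46, B cells one of -0.73 and exocrine pancreas one of 1.61.

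Probesets named after segments of the T cell receptor genes were gathered after the values had been seen. Of 17 such probesets 10 were above the filter, 9 of them below 0, with a median log2 ratio of -0.33. Of all probesets above the filter 54.4% were below 0, and their median was -0.04. At 1.5-fold 1 was lower, Trbv13-2 with 101 on control and 58.4 on EPA&DHA, and 0 were higher. Of all probesets above the filter 9.01% were lower by as much and 8.11% higher. The gamma chain probeset shared by Trgv4 and Trgv2 had 987 and 717 (log2 ratio -0.46, local SD 0.26), and 2 probesets of Trgv4 had log2 ratios of -0.34 and -0.17. Trgv1 had one of -0.38. On the alpha side, 3 probesets named Trav9d-3 had log2 ratios of -0.53, -0.21 and -0.10. Segments of this kind resemble one another and several of these probesets carry suffixes for shared probes, so they are not independent readings.

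**Figure D5:**
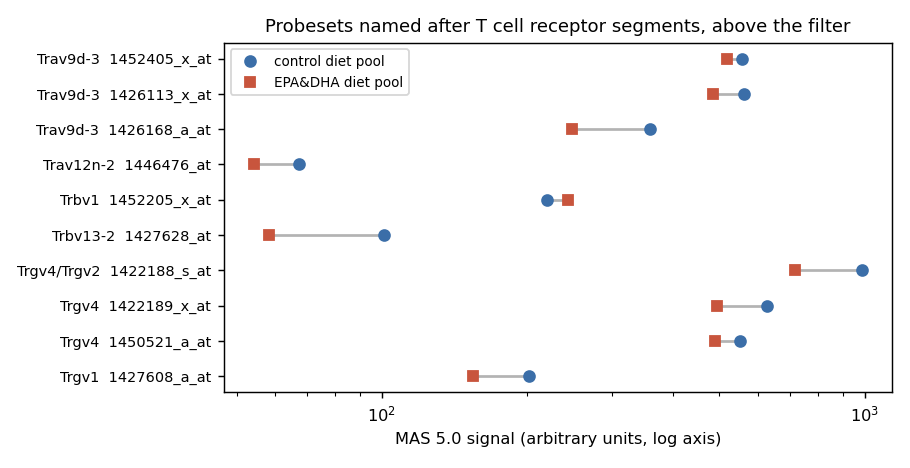
MAS 5.0 signal (x axis, arbitrary units, log scale) on the control array (blue circles) and the EPA&DHA array (red squares) for the 10 probesets above the filter that are named after T cell receptor segments. In 9 of them the EPA&DHA signal lies to the left, and Trbv1 is the exception, with 220 on control and 243 on EPA&DHA.

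Genes through which the epithelium holds and feeds intraepithelial lymphocytes were near the middle of all genes. Of 11 measured, 1 was lower (9.09%, against 8.02% of all genes) and 0 higher at 1.5-fold. The median was 0.01, with 5 below 0 and 6 above. Il7, a survival factor of lymphocytes, had 239 on control and 159 on EPA&DHA, for a log2 ratio of -0.59. Cdh1, which encodes the E-cadherin that CD103 binds, was the highest at 0.36, with 10157 and 13059. Il15, the cytokine that sustains intraepithelial lymphocytes, and H2-T3, which encodes a ligand of CD8 alpha, were named after their values were seen. Their log2 ratios of 0.31 and 0.34 were the highest after Cdh1, and that of H2-T3 is from an _x_at probeset. Among the others, Il15ra had a log2 ratio of -0.14 and Il18 one of -0.19.

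Markers of other cells differed between the same pools. Of 11 B cell markers 10 were measured, 7 lower and 0 higher at 1.5-fold, against 8.02% and 6.25% of all genes. Their median was -0.73 and their summed signal 1951 on control and 1190 on EPA&DHA. Of the 10, 4 had a mean signal from 50 to 100, where 24.1% of all genes were lower. Pax5, with 111 on control and 44.0 on EPA&DHA, passed the filter only through the control array. Ms4a1, encoding CD20, had 395 and 235 (log2 ratio -0.75, and -0.11 on its other probeset). Cd79b had a log2 ratio of -0.65 and Pou2af1 one of -0.21, and the list ran from -1.40 to 0.04. All 10 measured genes of exocrine pancreas were at least 1.5-fold higher, with a median of 1.61 and summed signals of 6230 and 16997. The 14 absorptive enterocyte markers had 1 higher and 0 lower, a median of -0.19 and sums of 468042 and 403251. The part of these cells in the values of the T cell genes was not tested.

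The remaining lists were mixed. Of 11 macrophage and dendritic cell markers 0 were apart at 1.5-fold, with a median of -0.14 and sums of 6641 and 6635. For 8 smooth muscle and stromal genes 0 were apart, with a median of -0.22 and sums of 2570 and 2244. The 7 plasma cell genes had 2 lower and 1 higher, a median of -0.08 and sums of 44832 and 41491. The higher one, Tnfrsf17, had 43.2 on control and 101 on EPA&DHA and passed the filter only through the EPA&DHA array. Of 8 mast cell genes 4 were measured, with sums of 649 and 451. Of these, 2 were lower (Mcpt1 at -1.37 and Mcpt2 at -1.22). The other 2 were above 0 by less than 1.5-fold, the highest being Kit at 0.53. NK cells were read by 1 of 8 markers, Tyrobp at -0.31, an adaptor that myeloid cells also use, granulocytes by Siglecf at 0.22 and red blood cells by Hba-a2 at 0.21. Ratios of 3′ to 5′ signal, a measure of intact RNA, were 0.932 on control and 0.793 on EPA&DHA for Gapdh and 1.22 and 1.16 for Actb.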

How the data were processed

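The 2 RNA pools of the small intestine were each hybridized by the authors to an Affymetrix MOE430_2 array, and probe intensities were summarized with MAS 5.0 (its version was not given in the sources used here). Deposited values are linear signals of intensity, with a 2% trimmed mean of 500.004 on each array. Detection calls and change p-values were not used here. After 64 control probesets were set aside, names came from the platform annotation, updated through gene identifiers: 34957 probesets named 1 gene, 920 several and 9160 none. Both arrays were then brought to 1 common 2% trimmed mean, and ratios of EPA&DHA over control were taken as log2. The filter, a geometric mean signal of 50, kept 24461 probesets (54.3%), whose log2 signals correlated between the arrays with r = 0.976 across probesets, which are not replicates. The local SD was the scaled median absolute deviation over 500 neighbours. A gene took its brightest kept probeset that names it alone.

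The 10 genes and all lists were chosen with earlier results of these data known. The 10 genes are named on all their probesets. From each lymphocyte list the genes at least 1.5-fold apart (at most 6) and the lowest and highest ratio were named. From other lists at most 3 were named, besides genes named for the filter or after their values were seen. With 2 values per gene, likeness of pattern could not be ranked. Alternatives in scaling, filter and probeset are given in the closing section. The calculation was tested on simulated data. Promoters came from RefSeq (GRCm38.p6). Calculations were made in Python 3.11.15 (pandas 2.3.3, numpy 2.4.6, matplotlib 3.10.9, statsmodels 0.14.6).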

Additional observations from a re-analysis of the deposited data

How the results depend on the processing

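With 1 array per diet, the number of arrays limits every value, and dim probesets limit it further. The 10 alternatives were quantile normalization, a loess correction, median centring, the deposited signals as they are, an offset of 50 added to each signal, no filter, a signal of at least 50 on both arrays, a mean signal of at least 100, the mean of all kept probesets, and leaving out _x_at and _s_at probesets. The median log2 ratio of the named genes ran from -0.10 to 0 over the alternatives. That of Cd8a ran from -0.82 to -0.39, that of Cd3e from 0.49 to 0.65 and that of Itgae from -0.77 to 0.09, a turn of sign to 1.70-fold lower where _x_at and _s_at probesets were left out. With the deposited signals, already on the same trimmed mean, these values were unchanged. They were also unchanged with 50 on both arrays or a mean of 100, which all 9 measured genes passed.

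With an offset of 50, 0 of the named genes were higher at 1.5-fold, and of the 7 lymphocyte lists together 6 genes were lower and 1 higher, with a median of -0.22, where 4.11% of all genes were lower and 3.51% higher. Without a filter, 2 named genes were lower and 1 was 2-fold apart, because Cd4 entered at -1.29. The 7 lists then had 36 genes lower, 8 higher and a median of -0.34, where 19.5% of all genes were lower and 14.5% higher. With a signal of at least 50 on both arrays, 11 genes of the 7 lists were lower and 1 higher, where 5.94% and 5.28% of all genes were. With a mean signal of at least 100, 8 were lower and 0 higher, where 4.78% and 4.77% of all genes were. With the mean of all kept probesets, 0 named genes were lower, since Cd8a came to -0.39. Without _x_at and _s_at probesets, 2 were lower, since Itgae came to -0.77. The medians of single lists ran from -0.46 to -0.33 for receptor signalling, -0.36 to -0.27 for surface receptors, -0.39 to -0.17 for intraepithelial lymphocytes, -0.19 to 0.02 for cytotoxic genes, -0.47 to -0.22 for helper T cells, -0.32 to -0.10 for transcription factors and -0.07 to 0.36 for receptor partners. The cause was not tested beyond these constructions. No paired analysis was possible because each diet has 1 array.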
